A study of Mus musculus with 12 samples.

Results

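Collagens are the secreted or membrane-bound proteins that give skin its tensile strength, and their genes were taken as the 44 genes of the deposited table, of 24532 in all, whose symbol has the form of a collagen chain (Col, a type number, a, a chain number). All 44 were tested. Expression was measured by bulk RNA sequencing of mouse skin in 12 libraries, 3 in each of 4 groups. The groups were germ-free (GF) mice given MC903, GF mice given ethanol, specific-pathogen-free (SPF) mice given MC903, and SPF mice given ethanol. The labels give the number of treatments as 5 in every group and do not make clear over how many days. MC903 (calcipotriol), an analogue of vitamin D, inflames mouse skin much as atopic dermatitis does, and ethanol is its vehicle. The labels number the GF libraries 1, 4 and 5 and the SPF libraries 1, 2 and 3 under each treatment, and give neither the age and sex of the mice nor whether each library is a separate mouse. P-values therefore measure the spread between these libraries, which may be technical. The strain reads C57BL/6 in 9 libraries, C57BL/7 in GF MC903 4, C57BL/8 in GF ethanol 5 and C57BL/9 in GF MC903 5.

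A collagen is built from 3 chains wound into a triple helix, in which glycine stands at the first place of each triplet of residues. Fibrillar collagens, above all types I and III, form the ropes of the dermis. Type IV chains form the sheet of the basement membrane under the epidermis and around vessels, type VII forms the fibrils that anchor this sheet to the dermis, and type XVII spans the membrane of basal keratinocytes. FACIT collagens sit on the surface of fibrils, and type VI forms beaded filaments between them.

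Libraries held 36358294 to 48225425 estimated counts. Levels are given as CPM, counts relative to library totals scaled by the TMM method, and as FPKM, which also divides by gene length, where genes are compared with each other. Changes are log2 differences from edgeR's quasi-likelihood test. Their standard errors (SE) are approximate, derived as the absolute log2 change divided by the square root of that test's F statistic. A gene counts as higher or lower where its p, adjusted by Benjamini-Hochberg over 16466 genes, was under 0.05. TMM factors were 0.806 to 0.836 in MC903 libraries and 1.16 to 1.25 in ethanol libraries. On unscaled library totals, the median gene shifted by -0.51 in the GF response to MC903 and by -0.58 in the SPF response. All 44 collagen genes were longer than the median gene tested, with a median of 6265 bases implied by the deposited columns, against 2788 bases for all genes tested. Changes were therefore also computed with the trend on gene length removed, and calls on named collagen responses that this ends or turns are given beside them.

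Most collagen genes were lower with MC903 than with ethanol. In the GF response, 2 of 44 were higher and 36 lower (4.55% and 81.8%), where 33.4% and 35.1% of all genes tested were higher and lower (68.5% together). In the SPF response, 5 were higher and 29 lower (11.4% and 65.9%), where 35.0% and 38.8% of all genes were (73.8% together). The median collagen change was -0.69 in the GF response, against -0.07 over all genes, and -0.88 in the SPF response, against -0.10 over all genes. With the length trend removed, the split was 4 higher and 18 lower in the GF response, where 34.4% and 30.1% of all genes were higher and lower, and 11 higher and 21 lower in the SPF response, where 36.9% and 34.7% were. The collagen medians were then -0.27 in the GF response and -0.35 in the SPF response. On library totals the split was 1 higher and 39 lower in GF skin, where 17.0% and 58.9% of all genes were higher and lower, and 2 higher and 37 lower in SPF skin, where 19.0% and 61.4% were.

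Of the 44, 29 were lower in both responses and 2 higher in both, Col6a4 and Col18a1. Col9a3 was lower in the GF response and higher in the SPF response. Another 8 passed in 1 response, and 4 (Col4a1, Col6a5, Col12a1 and Col26a1) in neither.

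**Figure D1:**
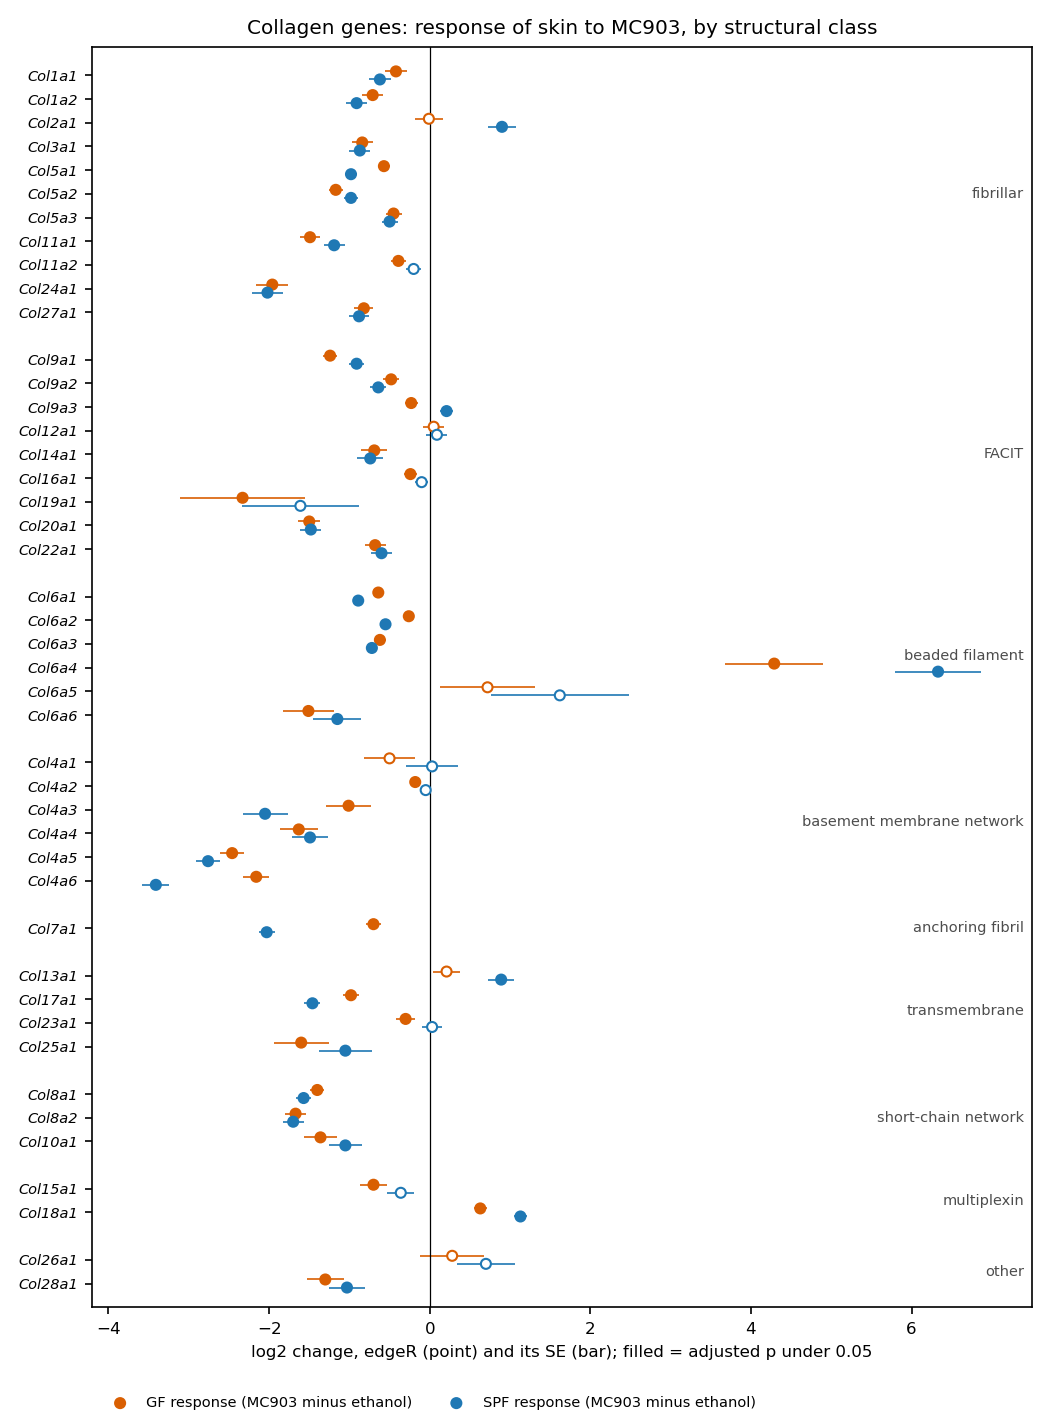
Log2 change (MC903 minus ethanol) of the 44 collagen genes in GF skin (orange) and SPF skin (blue), grouped by structural class. Points are edgeR estimates, bars are SE, and filled points have an adjusted p under 0.05. Most points lie left of 0, with Col4a6 in SPF skin farthest left and Col6a4 farthest right.

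Collagen genes together took a smaller share of the counts after MC903. Their share, in percent of all counts, was 0.635, 0.712 and 0.650 in GF MC903 libraries, against 1.57, 1.54 and 1.39 in GF ethanol libraries. SPF skin had 0.637, 0.627 and 0.733 in SPF MC903 libraries, against 1.71, 1.82 and 1.70 in SPF ethanol libraries. No MC903 library reached the lowest ethanol library in either housing. This share uses no scaling factor and so rests on library totals, on which most genes fell. On library totals the median change over all genes was -0.58 in the GF response and -0.68 in the SPF response. The collagen medians were then -1.20 in the GF response and -1.45 in the SPF response. Col1a1, Col1a2 and Col3a1 made up 50.5 to 61.8% of all collagen FPKM in every library. In a bulk sample, fewer cells of a type and less RNA per cell cannot be told apart.

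**Figure D2:**
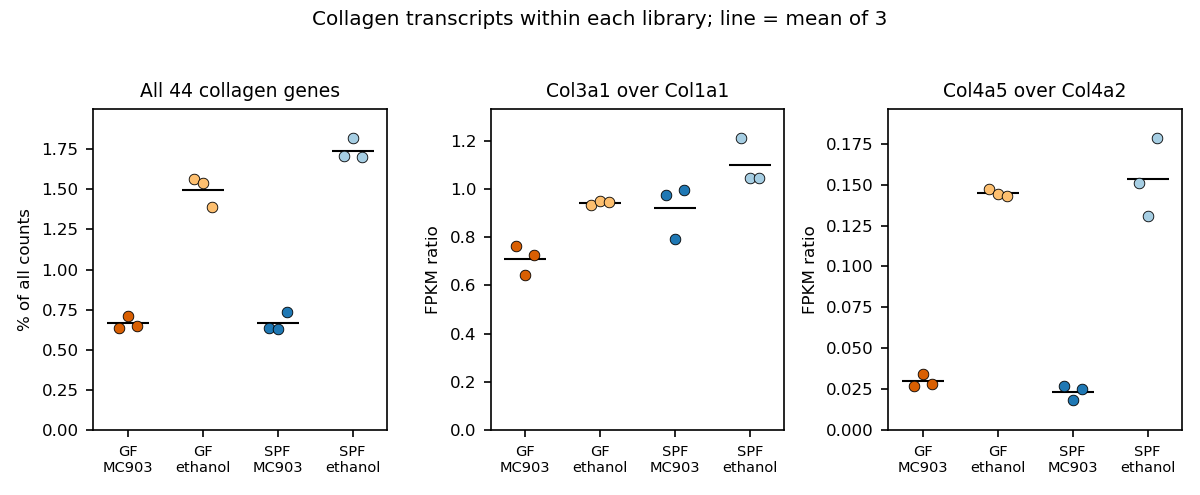
Percent of all counts in the 44 collagen genes (left), FPKM of Col3a1 over Col1a1 (middle) and FPKM of Col4a5 over Col4a2 (right), 1 point per library, with lines at the mean of 3. MC903 groups lie below their ethanol groups in each panel, and for Col3a1 over Col1a1 the GF groups also lie lower than the SPF groups under each treatment.

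Among the fibrillar collagens, 10 of 11 were lower in the GF response and none was higher, and 9 of 11 were lower and 1 higher in the SPF response. Of all genes, 33.4% were higher and 35.1% lower in the GF response, and 35.0% and 38.8% in the SPF response. These shares are the background for each class and list below. Col1a1, the first chain of type I, had 1442, 1894 and 1524 CPM in GF MC903 libraries, against 2251, 2403 and 1862 CPM in GF ethanol libraries. In SPF skin it had 1467, 1706 and 1859 CPM in SPF MC903 libraries, against 2282, 2919 and 2532 CPM in SPF ethanol libraries. The groups did not overlap in SPF skin, and in GF skin the highest MC903 library stood just above the lowest ethanol library. The change was -0.42 ± 0.14 (SE, adjusted p = 0.015) in GF skin, where it turned to 0.05 with the length trend removed, and -0.62 ± 0.14 (SE, adjusted p = 0.0013) in SPF skin, where it then missed the threshold at -0.10. The GF call also ended without GF MC903 1, GF MC903 5 or GF ethanol 4.

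Col1a2, its partner chain in type I, had the larger fall of the pair. It had 1547, 2037 and 1624 CPM in GF MC903 libraries, against 2979.6, 3092 and 2442 CPM in GF ethanol libraries. The SPF values were 1509, 1814 and 1919 CPM in SPF MC903 libraries, against 3052, 3628 and 3165 CPM in SPF ethanol libraries. The MC903 and ethanol libraries did not overlap, and the changes were -0.71 ± 0.13 (SE, adjusted p = 0.00044) in GF skin and -0.91 ± 0.13 (SE, adjusted p = 4.8e-05) in SPF skin. With the length trend removed the GF fall was -0.28 (adjusted p = 0.095). The FPKM of Col1a1 over that of Col1a2 was 0.821, 0.819 and 0.826 in GF MC903 libraries, against 0.665, 0.684 and 0.672 in GF ethanol libraries. SPF libraries gave a ratio of 0.857, 0.828 and 0.853 in SPF MC903 libraries, against 0.658, 0.709 and 0.704 in SPF ethanol libraries. Every MC903 library had a higher ratio than every ethanol library.

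Col3a1, the chain of type III collagen of pliable dermis and vessels, was lower after MC903 and lower in GF than in SPF skin. It had 1032, 1142 and 1039 CPM in GF MC903 libraries, against 1971, 2143 and 1652 CPM in GF ethanol libraries. SPF skin gave 1341, 1266 and 1737 CPM in SPF MC903 libraries, against 2588, 2864 and 2479.7 CPM in SPF ethanol libraries. All 4 groups kept apart except that the lowest GF ethanol library stood below the highest SPF MC903 library. The response was -0.84 ± 0.13 (SE, adjusted p = 6.9e-05) in GF skin and -0.87 ± 0.13 (SE, adjusted p = 4.3e-05) in SPF skin. GF minus SPF was -0.44 ± 0.13 (SE, adjusted p = 0.015) with MC903 and -0.46 ± 0.13 (SE, adjusted p = 0.022) with ethanol, and both missed the threshold with the length trend removed, at -0.29 (adjusted p = 0.088) with MC903 and -0.28 (adjusted p = 0.16) with ethanol. The MC903 call also ended without SPF MC903 3, and the ethanol call without SPF ethanol 2 or GF ethanol 5. Its FPKM relative to Col1a1 was 0.763, 0.642 and 0.727 in GF MC903 libraries, against 0.933, 0.951 and 0.945 in GF ethanol libraries. In SPF skin this ratio was 0.974, 0.791 and 0.996 in SPF MC903 libraries, against 1.21, 1.05 and 1.04 in SPF ethanol libraries.

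The minor fibrillar chains, which set fibril diameter, followed. Col5a1 had 149, 164 and 148 CPM in GF MC903 libraries, against 224, 243 and 217 CPM in GF ethanol libraries. Levels in SPF skin were 132, 152 and 149 CPM in SPF MC903 libraries, against 291, 289.6 and 273 CPM in SPF ethanol libraries. It fell in both housings, at -0.57 ± 0.07 in GF and -0.98 ± 0.07 in SPF skin on the log2 scale, where the groups did not overlap, and the GF fall ended with the length trend removed at -0.02. Col5a2 changed by -1.17 ± 0.09 (SE, adjusted p = 2.4e-07) in GF skin and -0.98 ± 0.09 (SE, adjusted p = 6.2e-07) in SPF skin. Col5a3 changed by -0.45 ± 0.10 (SE, adjusted p = 0.0011) in GF skin and -0.50 ± 0.10 (SE, adjusted p = 0.00039) in SPF skin, and stood at 0.03 in each response with the length trend removed. Col27a1, a fibrillar chain best known from cartilage, changed by -0.82 ± 0.12 (SE, adjusted p = 6.6e-05) in GF skin and -0.88 ± 0.12 (SE, adjusted p = 2.8e-05) in SPF skin. Its calls also ended with the length trend removed, at -0.28 (adjusted p = 0.052) in GF skin and -0.26 (adjusted p = 0.065) in SPF skin.

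Col24a1, a scarce fibrillar chain best known from developing bone, had the largest log2 fall of its class. It had 0.681, 0.500 and 0.544 CPM in GF MC903 libraries, against 2.17, 2.34 and 2.23 CPM in GF ethanol libraries. For SPF skin the values were 1.02, 0.823 and 0.691 CPM in SPF MC903 libraries, against 3.27, 3.48 and 3.61 CPM in SPF ethanol libraries. The treatments were far apart in both housings, at -1.96 ± 0.20 (SE, adjusted p = 2.8e-06) in GF skin and -2.02 ± 0.19 (SE, adjusted p = 8.5e-07) in SPF skin, and the falls passed in each alternative run. With ethanol it was lower in GF than SPF skin, at -0.62 ± 0.17 (SE, adjusted p = 0.024), a call that ended with the length trend removed (-0.38, adjusted p = 0.18) and without any of 5 ethanol libraries (all but SPF ethanol 1).

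The fibrillar chains of cartilage did not move together. Col11a1 fell in both responses, at -1.49 ± 0.13 (SE, adjusted p = 5.7e-07) in GF skin and -1.19 ± 0.13 (SE, adjusted p = 2.3e-06) in SPF skin. Col11a2 had 91.8, 78.2 and 82.0 CPM in GF MC903 libraries, against 114, 109 and 108 CPM in GF ethanol libraries. On the SPF side it had 82.2, 71.2 and 63.5 CPM in SPF MC903 libraries, against 78.7, 85.4 and 84.9 CPM in SPF ethanol libraries. Its GF change was -0.39 ± 0.09 (SE, adjusted p = 0.0019), turning to 0.11 with the length trend removed, its SPF change was -0.20 ± 0.09 (SE, adjusted p = 0.062), and GF exceeded SPF skin with ethanol by 0.41 ± 0.09 (SE, adjusted p = 0.0091).

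Col2a1, the main fibrillar chain of cartilage, differed. It had 31.5, 32.1 and 40.9 CPM in GF MC903 libraries, against 33.7, 42.8 and 28.5 CPM in GF ethanol libraries. In SPF skin it had 41.1, 27.9 and 33.8 CPM in SPF MC903 libraries, against 17.2, 20.2 and 17.5 CPM in SPF ethanol libraries. The SPF ethanol libraries were the lowest 3 of the 12, and the other groups overlapped. The response was -0.01 ± 0.17 (SE, adjusted p = 0.97) in GF skin and 0.90 ± 0.17 (SE, adjusted p = 0.00036) in SPF skin, where the call ended on library totals at 0.33. The GF response was lower, at -0.91 ± 0.24 (SE, adjusted p = 0.021), and with ethanol GF skin exceeded SPF skin by 0.94 ± 0.17 (SE, adjusted p = 0.0041). The difference of responses missed the threshold without GF MC903 1.

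Markers of other cell types moved with these groups. Of 10 fibroblast markers, 2 were higher and 7 lower in the GF response and 3 higher and 7 lower in the SPF response. Their summed CPM was 1269 to 1460.4 in GF MC903 and 2571 to 2756 in GF ethanol libraries, and 1149 to 1386 in SPF MC903 and 2342 to 2504 in SPF ethanol libraries. The largest part of each sum was Dcn, which averaged 678 CPM in GF MC903 and 1734 CPM in GF ethanol libraries. In SPF skin Dcn averaged 692 CPM with MC903 and 1715 CPM with ethanol. Of 9 chondrocyte markers tested, 7 were lower in the GF response and 6 in the SPF response. With ethanol, 4 of the 9 were higher in GF than SPF skin (44.4%, against 11.6% of all genes). With the length trend removed, 6 chondrocyte markers were lower in the GF response, and 4 were lower and 1 higher in the SPF response. With ethanol 3 were then higher in GF than SPF skin. Their summed CPM was 601 to 628 in GF MC903 and 741 to 877 in GF ethanol libraries, and 427 to 461 in SPF MC903 and 557 to 641 in SPF ethanol libraries. No marker of either list was at 0 in every library. The part of these cells in the collagen changes was not tested.

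Of the 9 FACIT collagens, 8 were lower in the GF response and none was higher, and 5 were lower and 1 higher in the SPF response. Col16a1, the FACIT chain with the highest mean FPKM (47.1), had 253, 219 and 239.7 CPM in GF MC903 libraries, against 284, 305 and 252 CPM in GF ethanol libraries. The SPF values were 214, 221 and 227 CPM in SPF MC903 libraries, against 249, 233 and 229 CPM in SPF ethanol libraries. The change was -0.24 ± 0.08 (SE, adjusted p = 0.013) in GF skin, turning to 0.19 with the length trend removed, and -0.10 ± 0.08 (SE, adjusted p = 0.23) in SPF skin. Its GF call also ended without GF MC903 4 or GF ethanol 4. With ethanol GF exceeded SPF skin by 0.24 ± 0.08 (SE, adjusted p = 0.04), a call lost on library totals at 0.18 and without SPF ethanol 2, SPF ethanol 3, GF ethanol 1, GF ethanol 4 or GF MC903 5.

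The 3 chains of type IX, which coat cartilage fibrils, went apart. Col9a1 fell in both responses, at -1.24 ± 0.09 (SE, adjusted p = 2.5e-07) in GF skin and -0.91 ± 0.09 (SE, adjusted p = 2.1e-06) in SPF skin, and so did Col9a2, at -0.48 ± 0.10 (SE, adjusted p = 0.001) in GF skin and -0.64 ± 0.10 (SE, adjusted p = 8.1e-05) in SPF skin. Col9a2 had 34.3, 27.5 and 30.9 CPM in GF MC903 libraries, against 44.3, 43.8 and 40.6 CPM in GF ethanol libraries. SPF skin gave 26.5, 23.7 and 24.5 CPM in SPF MC903 libraries, against 36.6, 44.1 and 35.96 CPM in SPF ethanol libraries. With MC903, GF exceeded SPF skin in Col9a2 by 0.31 ± 0.10 (SE, adjusted p = 0.026), a call lost when GF MC903 1 or 5, or SPF MC903 2 or 3, was left out. Col9a3 had 106, 90.1 and 106 CPM in GF MC903 libraries, against 117, 113 and 124 CPM in GF ethanol libraries. Levels in SPF skin were 139, 128 and 119 CPM in SPF MC903 libraries, against 104, 119 and 109.7 CPM in SPF ethanol libraries. For Col9a3 the groups did not overlap in GF skin, and in SPF skin the lowest MC903 library stood just below the highest ethanol library. Col9a3 changed by -0.23 ± 0.08 (SE, adjusted p = 0.023) in GF skin and by 0.21 ± 0.08 (SE, adjusted p = 0.034) in SPF skin, a direction that flips to -0.37 on library totals. Its calls depended on single libraries. The GF call ended with the length trend removed (-0.13) and without GF MC903 4 or GF ethanol 5, and the SPF call ended when SPF MC903 1 or 2, or SPF ethanol 1 or 3, was left out. The gene spans of Col9a3 and Tcfl5 overlap, and reads in any bases they share cannot be told apart, since strand use is not given. The FPKM of Col9a1 over Col9a3 was 0.143, 0.181 and 0.140 in GF MC903 libraries, against 0.293, 0.276 and 0.268 in GF ethanol libraries. The SPF ratio was 0.132, 0.124 and 0.166 in SPF MC903 libraries, against 0.304, 0.281 and 0.350 in SPF ethanol libraries.

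Col20a1 had the largest log2 fall of the FACIT chains above 1 FPKM, at -1.50 ± 0.14 (SE, adjusted p = 9.1e-07) in GF skin and -1.48 ± 0.13 (SE, adjusted p = 6.2e-07) in SPF skin. Col14a1, which sits on dermal fibrils, changed by -0.69 ± 0.16 (SE, adjusted p = 0.0019) in GF skin and -0.74 ± 0.16 (SE, adjusted p = 0.00098) in SPF skin, and Col22a1, of muscle-tendon junctions, by -0.68 ± 0.13 (SE, adjusted p = 0.00043) in GF skin and -0.60 ± 0.13 (SE, adjusted p = 0.0011) in SPF skin. The calls of both ended with the length trend removed, at -0.20 in GF and -0.19 in SPF skin for Col14a1 and at -0.19 in GF and -0.06 in SPF skin for Col22a1. Col12a1 did not pass in any comparison, at 0.05 ± 0.13 (SE, adjusted p = 0.74) in GF skin and 0.09 ± 0.13 (SE, adjusted p = 0.56) in SPF skin for the responses, although with the length trend removed its values were 0.68 in GF and 0.87 in SPF skin, past the threshold. Col19a1, a scarce chain, had 0.0852, 0 and 0.0859 CPM in GF MC903 libraries, against 0.361, 0.148 and 0.378 CPM in GF ethanol libraries. Its GF change was -2.33 ± 0.78 (SE, adjusted p = 0.018), which ended with the length trend removed (-1.73, adjusted p = 0.066) and without GF MC903 4, GF ethanol 1 or GF ethanol 5. Its SPF change was -1.61 ± 0.73 (SE, adjusted p = 0.064).

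All of type VI's abundant chains, which form the beaded filaments around cells, were lower after MC903. Col6a1 had 338, 353 and 337 CPM in GF MC903 libraries, against 551, 536 and 517 CPM in GF ethanol libraries. For SPF skin the values were 299.9, 288 and 305 CPM in SPF MC903 libraries, against 571, 561 and 525 CPM in SPF ethanol libraries. The treatments did not overlap, at -0.64 ± 0.05 (SE, adjusted p = 5.7e-07) in GF skin and -0.89 ± 0.05 (SE, adjusted p = 2.0e-08) in SPF skin. Col6a2 had 410.0, 434 and 416 CPM in GF MC903 libraries, against 511, 538 and 458 CPM in GF ethanol libraries. On the SPF side it had 328, 331 and 323 CPM in SPF MC903 libraries, against 516, 472 and 454 CPM in SPF ethanol libraries. Its change was -0.26 ± 0.07 (SE, adjusted p = 0.005) in GF skin, turning to 0.04 with the length trend removed, and -0.55 ± 0.07 (SE, adjusted p = 1.0e-05) in SPF skin. With MC903, GF exceeded SPF skin in Col6a2 by 0.36 ± 0.07 (SE, adjusted p = 0.0012) and in Col6a1 by 0.20 ± 0.05 (SE, adjusted p = 0.01). Col6a3, the longest chain of the type, had 207, 216 and 214 CPM in GF MC903 libraries, against 335, 314 and 328 CPM in GF ethanol libraries. In SPF skin it had 219, 202 and 233 CPM in SPF MC903 libraries, against 377, 322 and 378 CPM in SPF ethanol libraries. The treatments were apart in both housings. It changed by -0.62 ± 0.07 (SE, adjusted p = 8.9e-06) in GF skin and -0.72 ± 0.07 (SE, adjusted p = 1.7e-06) in SPF skin, and with the length trend removed these were -0.03 in GF skin and, turned, 0.01 in SPF skin.

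Col6a4, an alternative chain of type VI, had the largest rise of the collagens and the lowest ethanol level of those that rose. It had 1.11, 1.47 and 1.23 CPM in GF MC903 libraries, against 0.0802, 0 and 0.105 CPM in GF ethanol libraries. The SPF values were 6.07, 6.71 and 8.29 CPM in SPF MC903 libraries, against 0, 0.186 and 0.0738 CPM in SPF ethanol libraries. Each MC903 library lay above every ethanol library, and the 3 SPF MC903 libraries above the 3 GF MC903 libraries. Its change was 4.29 ± 0.61 (SE, adjusted p = 4.8e-05) in GF skin and 6.33 ± 0.54 (SE, adjusted p = 3.5e-07) in SPF skin, and the size rests on ethanol libraries with few or no counts. With MC903, GF skin had less Col6a4 than SPF skin, at -2.46 ± 0.40 (SE, adjusted p = 0.00041), whereas the difference of responses was -2.04 ± 1.05 (SE, adjusted p = 0.22). Its neighbours on chromosome 9, Col6a5 and Col6a6, lie within 27823 to 27854 bases of the next gene. Col6a5 did not pass in either response, at 0.72 ± 0.59 (SE, adjusted p = 0.29) in GF skin and 1.62 ± 0.86 (SE, adjusted p = 0.11) in SPF skin, and Col6a6 fell in both, at -1.51 ± 0.32 (SE, adjusted p = 0.0011) in GF skin and -1.15 ± 0.30 (SE, adjusted p = 0.0039) in SPF skin, the SPF call ending with the length trend removed at -0.55.

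The promoter of Col6a4, the collagen with the largest rise, is shown with those of Col4a6 and Col4a5, the pair with the largest falls apart from the scarce Col19a1, of Col7a1, which had the largest difference of responses among the collagens that passed, and of Col4a2, for contrast with the other type IV chains. Sequences are from RefSeq, build GRCm38.p6 (mm10), 250 bases before to 50 after the start, on the gene's strand, and 35 of the 44 genes had one. Capitals mark a match to any of 4 motifs on either strand. The GC box, to which Sp1 factors bind, was searched as GGGCGG. The CCAAT box, which NF-Y binds, was searched by the letters of its name. The TATA box, which positions the transcription start, was searched as TATAAA. The AP-1 site, which Fos and Jun proteins bind, was searched as TGANTCA. In these 5 windows no matches overlapped.
Col6a4 (chr9:106096642-106096941, minus strand): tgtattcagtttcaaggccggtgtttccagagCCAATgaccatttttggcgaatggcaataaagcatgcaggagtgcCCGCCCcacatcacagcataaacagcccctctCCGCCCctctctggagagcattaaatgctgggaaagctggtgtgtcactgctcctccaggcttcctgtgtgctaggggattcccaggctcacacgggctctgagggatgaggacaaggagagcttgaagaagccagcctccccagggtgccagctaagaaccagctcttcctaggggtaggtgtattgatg
Col4a6 (chrX:141474027-141474326, minus strand): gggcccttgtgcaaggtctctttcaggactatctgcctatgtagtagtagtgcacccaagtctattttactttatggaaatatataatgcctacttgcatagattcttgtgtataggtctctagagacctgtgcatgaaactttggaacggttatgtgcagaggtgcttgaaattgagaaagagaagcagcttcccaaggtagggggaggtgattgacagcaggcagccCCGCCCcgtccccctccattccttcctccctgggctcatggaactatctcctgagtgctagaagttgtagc
Col4a5 (chrX:141475169-141475468, plus strand): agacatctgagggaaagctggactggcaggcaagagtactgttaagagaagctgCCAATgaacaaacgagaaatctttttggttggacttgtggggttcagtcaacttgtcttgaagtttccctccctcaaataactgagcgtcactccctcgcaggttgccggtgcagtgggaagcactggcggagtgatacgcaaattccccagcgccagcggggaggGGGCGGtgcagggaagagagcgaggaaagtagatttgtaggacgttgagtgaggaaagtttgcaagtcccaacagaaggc
Col4a2 (chr8:11312555-11312854, plus strand): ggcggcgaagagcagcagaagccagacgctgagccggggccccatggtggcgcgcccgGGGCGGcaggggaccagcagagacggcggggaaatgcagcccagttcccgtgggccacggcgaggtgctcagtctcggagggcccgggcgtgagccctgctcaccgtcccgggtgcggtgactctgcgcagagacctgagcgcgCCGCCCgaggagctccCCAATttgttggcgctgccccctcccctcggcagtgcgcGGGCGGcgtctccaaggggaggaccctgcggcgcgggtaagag
Col7a1 (chr9:108953336-108953635, plus strand): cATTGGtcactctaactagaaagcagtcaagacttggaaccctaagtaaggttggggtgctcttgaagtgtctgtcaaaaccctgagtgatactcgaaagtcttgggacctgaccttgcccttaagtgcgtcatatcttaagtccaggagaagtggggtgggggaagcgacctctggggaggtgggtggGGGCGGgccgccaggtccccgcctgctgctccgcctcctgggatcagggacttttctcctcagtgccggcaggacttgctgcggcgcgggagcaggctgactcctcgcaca
Each of the 5 holds at least 1 GC box, and none holds the TATA box or AP-1 letters. A GC box stood in 22 of 35 collagen promoters (62.9%), against 35.9% of 27025 promoters, a CCAAT box in 34.3% against 37.9%, a TATA box in 14.3% against 14.2% and an AP-1 site in 2.9% against 7.9%. The Col4a2 window is the richest of the 5 in G and C, at 73.7%, and the Col4a6 window the poorest, at 48.3%.

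Of the 6 type IV chains, 5 were lower in the GF response and 4 in the SPF response, and none was higher. The pair Col4a5 and Col4a6, whose product lies in the epidermal basement membrane, fell the furthest. The genes stand head to head on the X chromosome, Col4a5 at chrX:141475370-141689236 and Col4a6 at chrX:141165403-141474095 (mm10, RefSeq), 1274 bases apart. Col4a5 had 3.38, 4.36 and 3.52 CPM in GF MC903 libraries, against 20.2, 20.9 and 21.0 CPM in GF ethanol libraries. SPF skin gave 3.60, 2.65 and 4.01 CPM in SPF MC903 libraries, against 22.1, 20.8 and 26.6 CPM in SPF ethanol libraries. The highest MC903 library of the 6 had 4.36 CPM and the lowest ethanol library 20.2 CPM. The change was -2.46 ± 0.15 (SE, adjusted p = 4.7e-08) in GF skin and -2.76 ± 0.15 (SE, adjusted p = 8.3e-09) in SPF skin.

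Col4a6 had 6.39, 7.70 and 5.27 CPM in GF MC903 libraries, against 29.5, 27.0 and 30.2 CPM in GF ethanol libraries. Levels in SPF skin were 4.17, 3.01 and 2.60 CPM in SPF MC903 libraries, against 38.0, 33.5 and 33.2 CPM in SPF ethanol libraries. All MC903 libraries lay below all ethanol libraries, and the 3 GF MC903 libraries above the 3 SPF MC903 libraries. It changed by -2.16 ± 0.16 (SE, adjusted p = 1.9e-07) in GF skin and by -3.41 ± 0.17 (SE, adjusted p = 3.6e-09) in SPF skin, and the GF response was higher by 1.25 ± 0.23 (SE, adjusted p = 0.003). With MC903, GF exceeded SPF skin by 0.98 ± 0.17 (SE, adjusted p = 0.00064). The FPKM of Col4a5 over that of Col4a2 was 0.0269, 0.0344 and 0.0280 in GF MC903 libraries, against 0.147, 0.145 and 0.143 in GF ethanol libraries. SPF libraries gave a ratio of 0.0272, 0.0181 and 0.0248 in SPF MC903 libraries, against 0.151, 0.131 and 0.178 in SPF ethanol libraries.

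Col4a3 and Col4a4, whose genes overlap by 114 bases so that their reads cannot be fully separated, were scarce. Col4a3 had 0.795, 0.695 and 0.888 CPM in GF MC903 libraries, against 1.52, 1.48 and 1.78 CPM in GF ethanol libraries. For SPF skin the values were 0.749, 0.463 and 1.05 CPM in SPF MC903 libraries, against 2.55, 2.87 and 3.87 CPM in SPF ethanol libraries. It fell in both, at -1.01 ± 0.28 (SE, adjusted p = 0.0064) in GF skin and -2.05 ± 0.28 (SE, adjusted p = 2.2e-05) in SPF skin, and the GF call ended with the length trend removed at -0.45. Col4a4 had 0.766, 0.695 and 0.372 CPM in GF MC903 libraries, against 2.09, 1.75 and 1.87 CPM in GF ethanol libraries. On the SPF side it had 1.42, 1.05 and 1.28 CPM in SPF MC903 libraries, against 3.68, 3.61 and 3.26 CPM in SPF ethanol libraries. It changed by -1.63 ± 0.24 (SE, adjusted p = 6.7e-05) in GF skin and -1.49 ± 0.22 (SE, adjusted p = 5.3e-05) in SPF skin. Under each treatment Col4a4 was lower in GF than in SPF skin, at -1.03 ± 0.25 (SE, adjusted p = 0.006) with MC903 and -0.89 ± 0.21 (SE, adjusted p = 0.012) with ethanol. With ethanol Col4a3 was lower, at -0.96 ± 0.25 (SE, adjusted p = 0.019). The ethanol calls ended with the length trend removed, at -0.63 for Col4a4 and -0.67 for Col4a3, for Col4a4 also without GF ethanol 4, and for Col4a3 also without SPF ethanol 3, GF ethanol 1 or GF ethanol 4.

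Col4a1 and Col4a2, the type IV chains of nearly all basement membranes, had the smallest log2 changes of the type. Their genes overlap by 85 bases, and reads there cannot be told apart. Col4a2 had 124, 126 and 125 CPM in GF MC903 libraries, against 136, 144 and 146 CPM in GF ethanol libraries. In SPF skin it had 131, 145 and 160.0 CPM in SPF MC903 libraries, against 145, 158 and 148 CPM in SPF ethanol libraries. Its GF change was -0.18 ± 0.07 (SE, adjusted p = 0.032), turning to 0.31 with the length trend removed, lost without any of GF MC903 1, 4 and 5 and GF ethanol 4 and 5, and lost in DESeq2. The SPF change was -0.05 ± 0.07 (SE, adjusted p = 0.53). Col4a1 had 109.7, 37.5 and 113 CPM in GF MC903 libraries, against 131, 97.4 and 139.5 CPM in GF ethanol libraries. The SPF values were 131, 134 and 102 CPM in SPF MC903 libraries, against 102, 151 and 107 CPM in SPF ethanol libraries. GF MC903 4 was the lowest of the 12 libraries. The change was -0.50 ± 0.32 (SE, adjusted p = 0.18) in GF skin, and -0.14 (adjusted p = 0.53) without that library, and 0.03 ± 0.32 (SE, adjusted p = 0.94) in SPF skin.

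Among 8 markers of endothelium and pericytes, cells that make these chains around vessels, 7 were lower in each response. With the length trend removed, 4 were lower in the GF response, and 2 were lower and 1 higher in the SPF response, with medians of -0.22 in GF and -0.06 in SPF skin. Their summed CPM was 335 to 354 in GF MC903 and 495 to 507 in GF ethanol libraries, and 322 to 345 in SPF MC903 and 442 to 500.2 in SPF ethanol libraries. None of the 8 was at 0 in every library. Their part in the collagen changes was not tested.

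**Figure D3:**
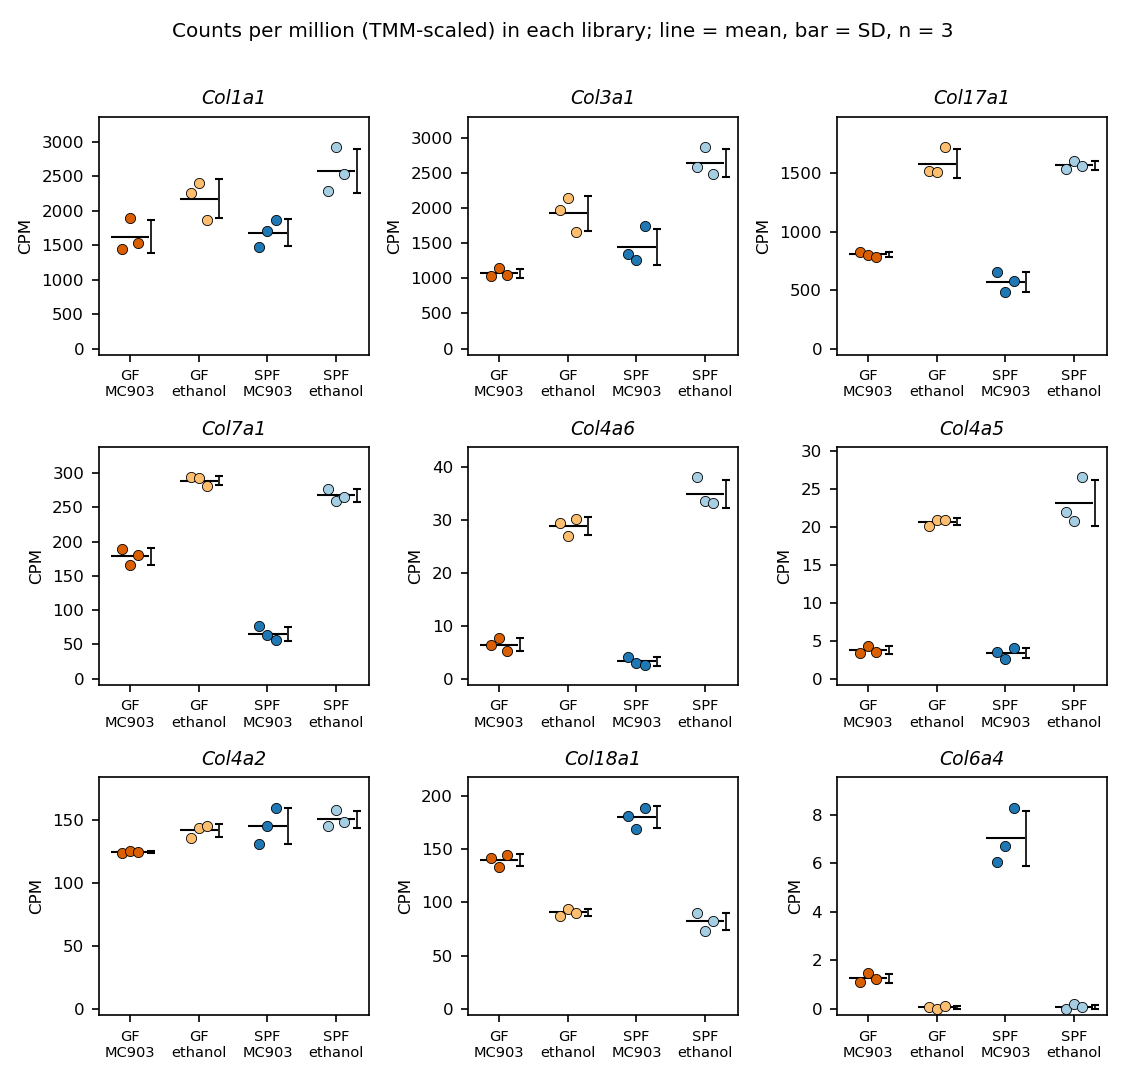
CPM of 9 collagen genes in each of the 12 libraries, by group, with the mean (line) and SD (bar) of 3. Col4a5 and Col4a6 lie at 2.60 to 7.70 CPM with MC903 and 20.2 to 38.0 CPM with ethanol, while Col18a1 and Col6a4 are higher with MC903.

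The anchoring fibril and hemidesmosome collagens of the dermal-epidermal junction fell most in SPF skin. Col7a1, the sole chain of the anchoring fibril and the gene altered in dystrophic epidermolysis bullosa, lies at chr9:108953586-108984875. It had 189, 165 and 180.3 CPM in GF MC903 libraries, against 294, 292 and 281 CPM in GF ethanol libraries. SPF skin gave 76.7, 63.6 and 56.5 CPM in SPF MC903 libraries, against 277, 259 and 265 CPM in SPF ethanol libraries. The ethanol groups stood close together, while the 3 GF MC903 libraries stood far above the 3 SPF MC903 libraries. Col7a1 averaged 178 ± 11.97 CPM in GF MC903 and 65.6 ± 10.2 CPM in SPF MC903 libraries (SD, n = 3 each). The change was -0.70 ± 0.09 (SE, adjusted p = 2.6e-05) in GF skin, ending with the length trend removed at -0.12, and -2.03 ± 0.10 (SE, adjusted p = 2.3e-09) in SPF skin. The GF response was higher by 1.33 ± 0.13 (SE, adjusted p = 8.9e-05), and with MC903 GF skin exceeded SPF skin by 1.44 ± 0.09 (SE, adjusted p = 8.7e-07).

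Col17a1, the transmembrane collagen of hemidesmosomes, lies at chr19:47646341-47692042. It had 825, 806 and 788 CPM in GF MC903 libraries, against 1518, 1512 and 1726 CPM in GF ethanol libraries. Levels in SPF skin were 654, 483 and 578 CPM in SPF MC903 libraries, against 1534, 1605 and 1568 CPM in SPF ethanol libraries. The treatments did not overlap, and the 3 GF MC903 libraries were above the 3 SPF MC903 libraries. It changed by -0.98 ± 0.10 (SE, adjusted p = 2.3e-06) in GF skin and -1.46 ± 0.10 (SE, adjusted p = 4.6e-08) in SPF skin, and GF exceeded SPF skin with MC903 by 0.50 ± 0.10 (SE, adjusted p = 0.0015). The FPKM of Col7a1 over that of Col17a1 was 0.137, 0.123 and 0.137 in GF MC903 libraries, against 0.116, 0.116 and 0.0976 in GF ethanol libraries. The SPF ratio was 0.0703, 0.0790 and 0.0585 in SPF MC903 libraries, against 0.108, 0.0967 and 0.101 in SPF ethanol libraries.

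Basal keratinocytes make both of these chains. Of 8 basal keratinocyte markers, 3 were higher and 2 lower in the GF response, and 4 were higher and 3 lower in the SPF response. Their summed CPM was 29593 to 29815 in GF MC903 and 11129 to 12784 in GF ethanol libraries, and 28229 to 32091 in SPF MC903 and 9151 to 10207 in SPF ethanol libraries. Krt14, a keratin of the basal layer, changed by 1.90 in GF and 2.51 in SPF skin, while Dst, a hemidesmosome linker, changed by -0.95 in GF and -1.60 in SPF skin. No marker of the list was at 0 in every library. On library totals the list had 2 higher and 5 lower in each response, and with the length trend removed 6 higher and 2 lower in the GF response and 4 higher and 1 lower in the SPF response. The sum is made up mostly of Krt14 and Krt5, which averaged 19869 and 8581 CPM in GF MC903 libraries, and the list's median change was -0.02 in GF and 0.29 in SPF skin. The part of these cells in the collagen changes was not tested.

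The other transmembrane collagens split. Col13a1, found at cell contacts and nerve-muscle junctions, had 4.51, 5.42 and 5.16 CPM in GF MC903 libraries, against 4.47, 5.11 and 3.46 CPM in GF ethanol libraries. For SPF skin the values were 8.27, 7.02 and 7.57 CPM in SPF MC903 libraries, against 3.32, 4.52 and 4.48 CPM in SPF ethanol libraries. The SPF treatments did not overlap, and the change was 0.21 ± 0.17 (SE, adjusted p = 0.28) in GF skin and 0.89 ± 0.16 (SE, adjusted p = 0.00032) in SPF skin, a call that ended on library totals at 0.32. GF was lower than SPF skin with MC903, at -0.60 ± 0.17 (SE, adjusted p = 0.012). Col23a1 had 16.6, 21.0 and 22.3 CPM in GF MC903 libraries, against 25.8, 24.02 and 24.04 CPM in GF ethanol libraries. On the SPF side it had 23.2, 23.8 and 29.9 CPM in SPF MC903 libraries, against 26.5, 24.7 and 24.1 CPM in SPF ethanol libraries. The GF change of Col23a1 was -0.30 ± 0.12 (SE, adjusted p = 0.039), turning to 0.16 with the length trend removed and lost without SPF ethanol 2, GF MC903 1 or any GF ethanol library, and it had an SPF change of 0.03 ± 0.12 (SE, adjusted p = 0.83). Col25a1, a neuronal collagen, changed by -1.60 ± 0.34 (SE, adjusted p = 0.0011) in GF skin and -1.05 ± 0.33 (SE, adjusted p = 0.013) in SPF skin, and its SPF call ended with the length trend removed (-0.44, adjusted p = 0.25) and without SPF ethanol 1.

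The 3 short-chain network collagens fell in both housings. Col8a1, made by vessels and fibroblasts, had 140.1, 161 and 142 CPM in GF MC903 libraries, against 402, 398 and 373 CPM in GF ethanol libraries. In SPF skin it had 145, 116 and 147 CPM in SPF MC903 libraries, against 407, 396 and 411 CPM in SPF ethanol libraries. The groups were far apart, at -1.40 ± 0.09 (SE, adjusted p = 5.4e-08) in GF skin and -1.57 ± 0.09 (SE, adjusted p = 9.4e-09) in SPF skin. Col8a2 had 35.7, 30.0 and 31.9 CPM in GF MC903 libraries, against 106, 109 and 95.2 CPM in GF ethanol libraries. The SPF values were 29.9, 21.3 and 28.4 CPM in SPF MC903 libraries, against 96.9, 78.8 and 83.4 CPM in SPF ethanol libraries. Its changes were -1.67 ± 0.13 (SE, adjusted p = 2.2e-07) in GF skin and -1.70 ± 0.13 (SE, adjusted p = 1.0e-07) in SPF skin. Col10a1, of hypertrophic cartilage, had 3.15, 4.64 and 3.67 CPM in GF MC903 libraries, against 10.05, 11.3 and 8.17 CPM in GF ethanol libraries. SPF skin gave 4.15, 3.27 and 5.20 CPM in SPF MC903 libraries, against 6.70, 10.5 and 8.78 CPM in SPF ethanol libraries. It changed by -1.36 ± 0.21 (SE, adjusted p = 0.00011) in GF skin and -1.05 ± 0.21 (SE, adjusted p = 0.00069) in SPF skin. Its gene span overlaps that of Nt5dc1, and whether the 2 share exon bases, where reads could not be told apart, was not examined. All 3 short-chain collagens passed in every alternative run.

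Col18a1, the basement membrane collagen from which endostatin is cut, passed as higher in both responses. It lies at chr10:77052178-77166530 and had 141, 133 and 145 CPM in GF MC903 libraries, against 87.6, 94.2 and 89.9 CPM in GF ethanol libraries. Levels in SPF skin were 181, 169 and 189 CPM in SPF MC903 libraries, against 89.9, 73.5 and 82.9 CPM in SPF ethanol libraries. The treatments did not overlap, and all SPF MC903 libraries exceeded all GF MC903 libraries. It rose by 0.63 ± 0.08 (SE, adjusted p = 1.1e-05) in GF skin, where the call ended on library totals at 0.11, and by 1.13 ± 0.08 (SE, adjusted p = 4.2e-08) in SPF skin. The GF response was lower, at -0.51 ± 0.11 (SE, adjusted p = 0.0071), and with MC903 GF was lower than SPF skin, at -0.36 ± 0.08 (SE, adjusted p = 0.0021). Col15a1, the related multiplexin, had 23.6, 20.9 and 17.9 CPM in GF MC903 libraries, against 34.6, 38.2 and 28.3 CPM in GF ethanol libraries. For SPF skin the values were 20.8, 17.8 and 24.1 CPM in SPF MC903 libraries, against 26.6, 21.3 and 32.8 CPM in SPF ethanol libraries. It changed by -0.70 ± 0.17 (SE, adjusted p = 0.0029) in GF skin and -0.36 ± 0.17 (SE, adjusted p = 0.069) in SPF skin, and its GF call ended with the length trend removed at -0.26.

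Of the 2 collagens outside these classes, Col28a1 is made by Schwann cells of peripheral nerves. It had 1.82, 2.36 and 2.29 CPM in GF MC903 libraries, against 5.83, 5.28 and 4.79 CPM in GF ethanol libraries. On the SPF side it had 3.20, 1.83 and 3.42 CPM in SPF MC903 libraries, against 4.35, 6.17 and 6.62 CPM in SPF ethanol libraries. The treatments did not overlap, and it changed by -1.30 ± 0.23 (SE, adjusted p = 0.00032) in GF skin and -1.03 ± 0.23 (SE, adjusted p = 0.0013) in SPF skin. Of 8 Schwann cell markers, 8 were lower in the GF response and 7 in the SPF response. Their summed CPM was 341 to 363 in GF MC903 and 636 to 657 in GF ethanol libraries, and 306 to 357 in SPF MC903 and 533 to 604 in SPF ethanol libraries, and none was at 0 in every library. Col26a1 had 0.852, 0.222 and 0.688 CPM in GF MC903 libraries, against 0.561, 0.444 and 0.441 CPM in GF ethanol libraries. In SPF skin it had 1.149, 1.13 and 1.51 CPM in SPF MC903 libraries, against 0.912, 0.619 and 0.793 CPM in SPF ethanol libraries. It did not pass in either response, at 0.28 ± 0.40 (SE, adjusted p = 0.55) in GF skin and 0.70 ± 0.36 (SE, adjusted p = 0.1) in SPF skin. The part of Schwann cells in these changes was not tested.

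The responses of GF and SPF skin differed for 8 of the 44 collagens (18.2%), against 17.0% of all genes tested, so the family's share was near the background. The GF response was higher for 5 (Col4a6, Col5a1, Col6a1, Col7a1 and Col17a1), where 7.75% of all genes were higher, and lower for 3 (Col2a1, Col9a3 and Col18a1), where 9.26% were lower. Of these, Col7a1, Col4a6 and Col18a1 passed in every alternative run. With ethanol, 4 collagens were higher and 5 lower in GF than SPF skin (20.5% together), against 22.0% of all genes, of which 11.6% were higher and 10.3% lower. The higher were Col2a1, Col6a5, Col11a2 and Col16a1, and the lower Col3a1, Col4a3, Col4a4, Col5a1 and Col24a1. With MC903, 6 were higher and 12 lower (40.9%), against 41.7% of all genes, of which 20.8% were higher and 20.9% lower. Here the higher were Col4a6, Col6a1, Col6a2, Col7a1, Col9a2 and Col17a1. The lower were Col3a1, Col4a2, Col4a4, Col5a2, Col6a4, Col9a1, Col9a3, Col11a1, Col13a1, Col18a1, Col23a1 and Col26a1. With the length trend removed, the counts were 9 higher and 0 lower with ethanol, where 8.96% and 5.02% of all genes were higher and lower by edgeR, and 11 higher and 8 lower with MC903, where 19.5% and 19.8% were. The median collagen difference was -0.04 with ethanol and -0.05 with MC903, against 0.00 with ethanol and 0.02 with MC903 over all genes.

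**Figure D4:**
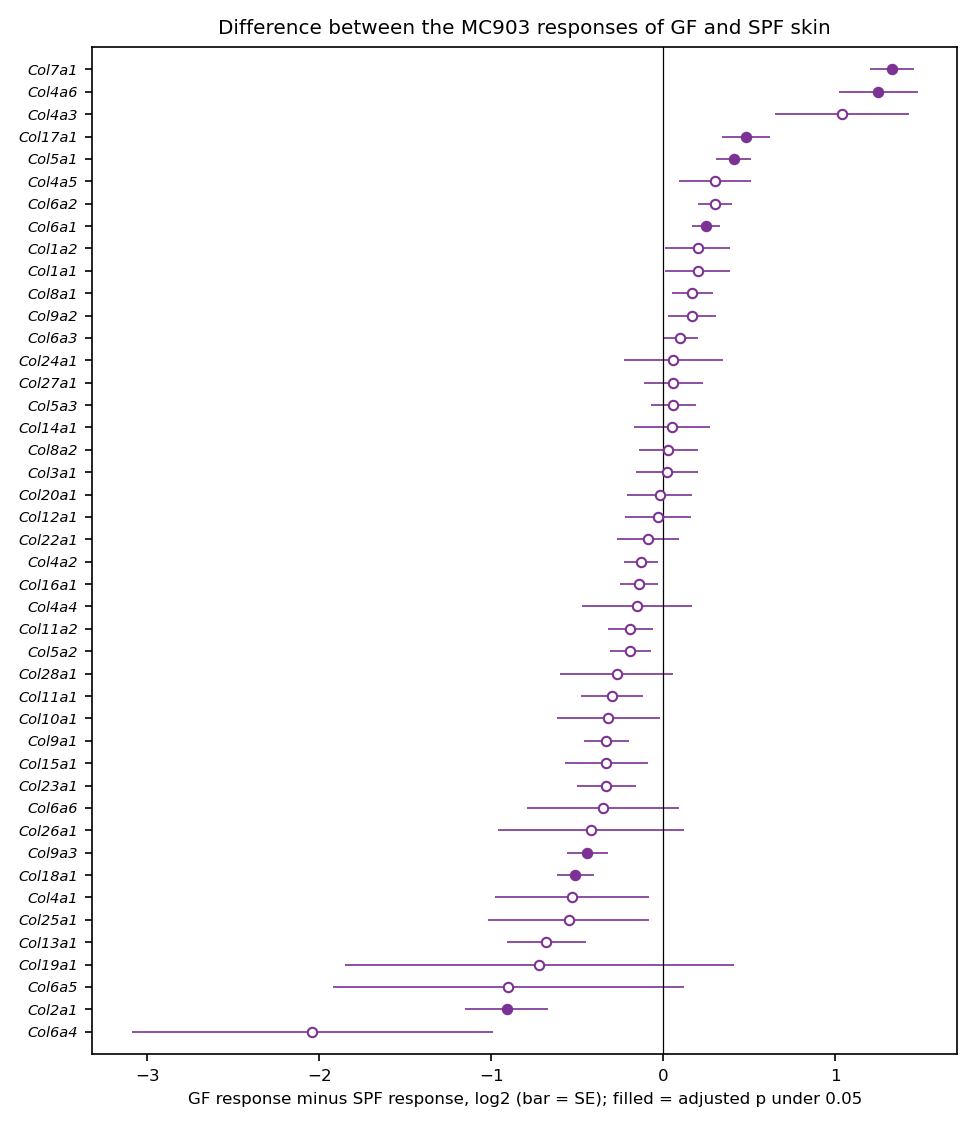
GF response minus SPF response in log2 for the 44 collagen genes, sorted, with SE as bars and filled points for an adjusted p under 0.05. Col7a1 and Col4a6 lie at the positive end, at 1.33 and 1.25, and 8 of 44 points are filled.

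Other genes of the collagen pathway were read from lists, and those named here without a p passed edgeR's adjusted threshold in both responses. The list for hydroxylation, glycosylation and folding of the chains holds enzymes and also genes that are not enzymes. It had 6 higher and 10 lower of 24 in the GF response (25.0% and 41.7%, against 33.4% and 35.1% of all genes). In the SPF response 8 were higher and 8 lower (33.3% each, against 35.0% and 38.8% of all genes), and these shares were near the background. P4hb, a subunit of prolyl hydroxylase that also folds other proteins, changed by 1.28 in GF and 1.97 in SPF skin. P4ha1, its catalytic partner, changed by -0.01 (adjusted p = 0.90) in GF skin and by 0.25 (adjusted p = 0.014) in SPF skin, where it flips to -0.32 on library totals. Serpinh1, the collagen chaperone, changed by 0.16 (adjusted p = 0.17) in GF skin and 0.28 (adjusted p = 0.023) in SPF skin, where it flips to -0.30 on library totals. P3h2, which hydroxylates type IV chains, changed by -1.65 in GF skin and was also lower in SPF skin (edgeR adjusted p = 1.8e-04). The list's median was 0.01 in GF and 0.04 in SPF skin, against -0.07 in GF and -0.10 in SPF skin over all genes. On library totals 3 were higher and 19 lower in the GF response and 2 higher and 20 lower in the SPF response, and with the length trend removed 9 were higher and 8 lower in GF skin and 13 higher and 7 lower in SPF skin.

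Genes for trimming the propeptides and cross-linking fibrils were lower for the most part, with 9 of 13 lower and 1 higher in the GF response and 11 lower and 1 higher in the SPF response. Their medians were -0.98 in GF and -1.02 in SPF skin. Lox, which starts cross-links, changed by -0.65 in GF and -0.63 in SPF skin. Loxl2, its relative for type IV collagen, changed by -0.98 in GF and -0.73 in SPF skin. Adamts14, a propeptide-cutting protease, changed by -1.57 in GF and -2.22 in SPF skin. Pcolce, which aids that cutting, was the gene that rose, by 0.45 in GF and 0.34 in SPF skin, and this flips to -0.06 in GF and -0.23 in SPF skin on library totals. With the length trend removed, the list had 1 higher and 7 lower in the GF response and 0 higher and 6 lower in the SPF response by edgeR, with medians of -0.55 in GF and -0.56 in SPF skin. Pcolce (0.20 in GF and 0.13 in SPF skin) then no longer passed in either response, Lox (-0.25 in GF and -0.20 in SPF skin) did not pass in either response and Loxl2 (-0.27) did not pass in SPF skin.

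Proteins that coat or link fibrils had 16 of 17 lower in the GF response, none higher, and 14 of 17 lower in the SPF response, none higher, with medians of -0.97 in GF and -0.91 in SPF skin. With the length trend removed, 14 were lower in the GF response, none higher, and 11 lower and 1 higher in the SPF response. The medians were then -0.99 in GF and -0.66 in SPF skin. Postn, which links fibrils in healing tissue, changed by -1.46 in GF and -2.04 in SPF skin. Thbs1 changed by -1.75 in GF and -2.03 in SPF skin, and Aspn, a small proteoglycan, by -1.65 in GF and -1.84 in SPF skin. Receptors for collagen were mixed, with 3 higher and 6 lower of 11 in the GF response (27.3% and 54.5%, against 33.4% and 35.1% of all genes). In the SPF response 5 were higher and 4 lower (45.5% and 36.4%, against 35.0% and 38.8% of all genes). The receptor medians were -0.25 in GF and -0.31 in SPF skin, and turned to 0.08 in GF and 0.21 in SPF skin with the length trend removed. Adgrg1, a receptor for type III collagen, changed by 1.33 in GF and 1.41 in SPF skin, and Itga2, an integrin chain that binds type I collagen, by -2.05 in GF and -1.34 in SPF skin. Gp6, the platelet receptor, was at 0 in all libraries.

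Of 14 genes listed for collagen degradation, 7 were higher and 7 lower in the GF response, and 5 higher and 7 lower in the SPF response. Not all of them cut collagen or restrain the cutting, and Mrc2 is also in the receptor list. The medians were 0.01 in GF skin, or -0.50 on library totals, and -0.11 in SPF skin, or 0.06 with the length trend removed. Mmp13, the main interstitial collagenase of mice, averaged 333 CPM in GF MC903 and 0.861 CPM in GF ethanol libraries, and 536 CPM in SPF MC903 and 1.503 CPM in SPF ethanol libraries, with changes of 8.59 in GF and 8.47 in SPF skin. Mmp14, a membrane collagenase, changed by 0.35 (adjusted p = 0.0023) in GF skin, which flips to -0.16 on library totals, and by 0.15 (adjusted p = 0.11) in SPF skin, where it was -0.42 on library totals and 0.45 with the length trend removed. Ctsk, a lysosomal collagenase, changed by -0.34 in GF and -0.46 in SPF skin, and Timp3, a metalloproteinase inhibitor, by -1.23 in GF and -1.48 in SPF skin. Of 20 genes of TGF-beta signalling, a main inducer of collagens, 3 were higher and 15 lower in the GF response, and 5 higher and 13 lower in the SPF response, with medians of -0.61 in GF and -0.44 in SPF skin. With the length trend removed the list had 4 higher and 11 lower in the GF response and 9 higher and 11 lower in the SPF response, with medians of -0.32 in GF and -0.26 in SPF skin, and on library totals the medians were -1.12 in GF and -1.02 in SPF skin. Tgfb1, the ligand, changed by 0.90 in GF and 1.22 in SPF skin. Inhba, an activin chain, changed by -1.62 in GF and -1.49 in SPF skin, and Ltbp4, which stores the ligand in the matrix, by -1.01 in GF and -1.31 in SPF skin.

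Markers of other cells of skin and its surroundings also moved. Of 8 skeletal muscle markers, 8 were lower in each response, where 35.1% (GF) and 38.8% (SPF) of all genes were. Under each treatment 6 of the 8 were higher in GF than SPF skin, where 11.6% of all genes were with ethanol and 20.8% with MC903. Their summed CPM was 1299 to 1354 in GF MC903 and 2151 to 2324 in GF ethanol libraries, and 903 to 936 in SPF MC903 and 1638 to 1950.5 in SPF ethanol libraries. Of 8 adipocyte markers, 6 were lower in each response, with sums of 286 to 364 CPM in GF MC903 and 439 to 497 CPM in GF ethanol libraries, and 218 to 360.0 CPM in SPF MC903 and 458 to 481 CPM in SPF ethanol libraries. For dermal papilla 1 of 8 was higher and 4 lower in the GF response, and 2 higher and 4 lower in the SPF response. The sums were 264 to 291 CPM in GF MC903 and 590.1 to 640.5 CPM in GF ethanol libraries, and 285 to 340.2 CPM in SPF MC903 and 438 to 579 CPM in SPF ethanol libraries. These sums were mostly Wif1, which averaged 207 CPM in GF MC903 and 503 CPM in GF ethanol libraries. In SPF skin Wif1 averaged 213 CPM with MC903 and 410 CPM with ethanol. Bmp4 and Sox18 were the 2 higher in the SPF response. For macrophages 5 of 8 were higher and 2 lower in the GF response, and 6 higher and 2 lower in the SPF response. On library totals 3 were higher and 3 lower in the GF response and 3 higher and 2 lower in the SPF response, and the medians were 0.07 in GF and 0.06 in SPF skin, against 0.58 in GF and 0.64 in SPF skin with TMM scaling. The sums were 594 to 669 CPM in GF MC903 and 428 to 467 CPM in GF ethanol libraries, and 496 to 598 CPM in SPF MC903 and 347 to 425 CPM in SPF ethanol libraries. No marker of these 4 lists was at 0 in every library. Their part in the collagen results was not tested.

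Codons from GENCODE vM21 transcripts show how the members differ in the triple helix. The longest unbroken run of triplets that begin with a glycine codon was 337 to 344 triplets in 9 of the 11 fibrillar chains, 216 in Col24a1 and 217 in Col27a1. It was 39 to 66 triplets in type IV chains, 75 in Col7a1, 56 in Col17a1, 113 in type IX chains and Col22a1, 87 in Col6a1 and Col6a2, and 30 in Col18a1. Chains with long and with broken helices both fell after MC903. The fibrillar Col2a1, whose run of 339 triplets equals that of Col1a2 and Col5a2, stood outside that fall.

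**Figure D5:**
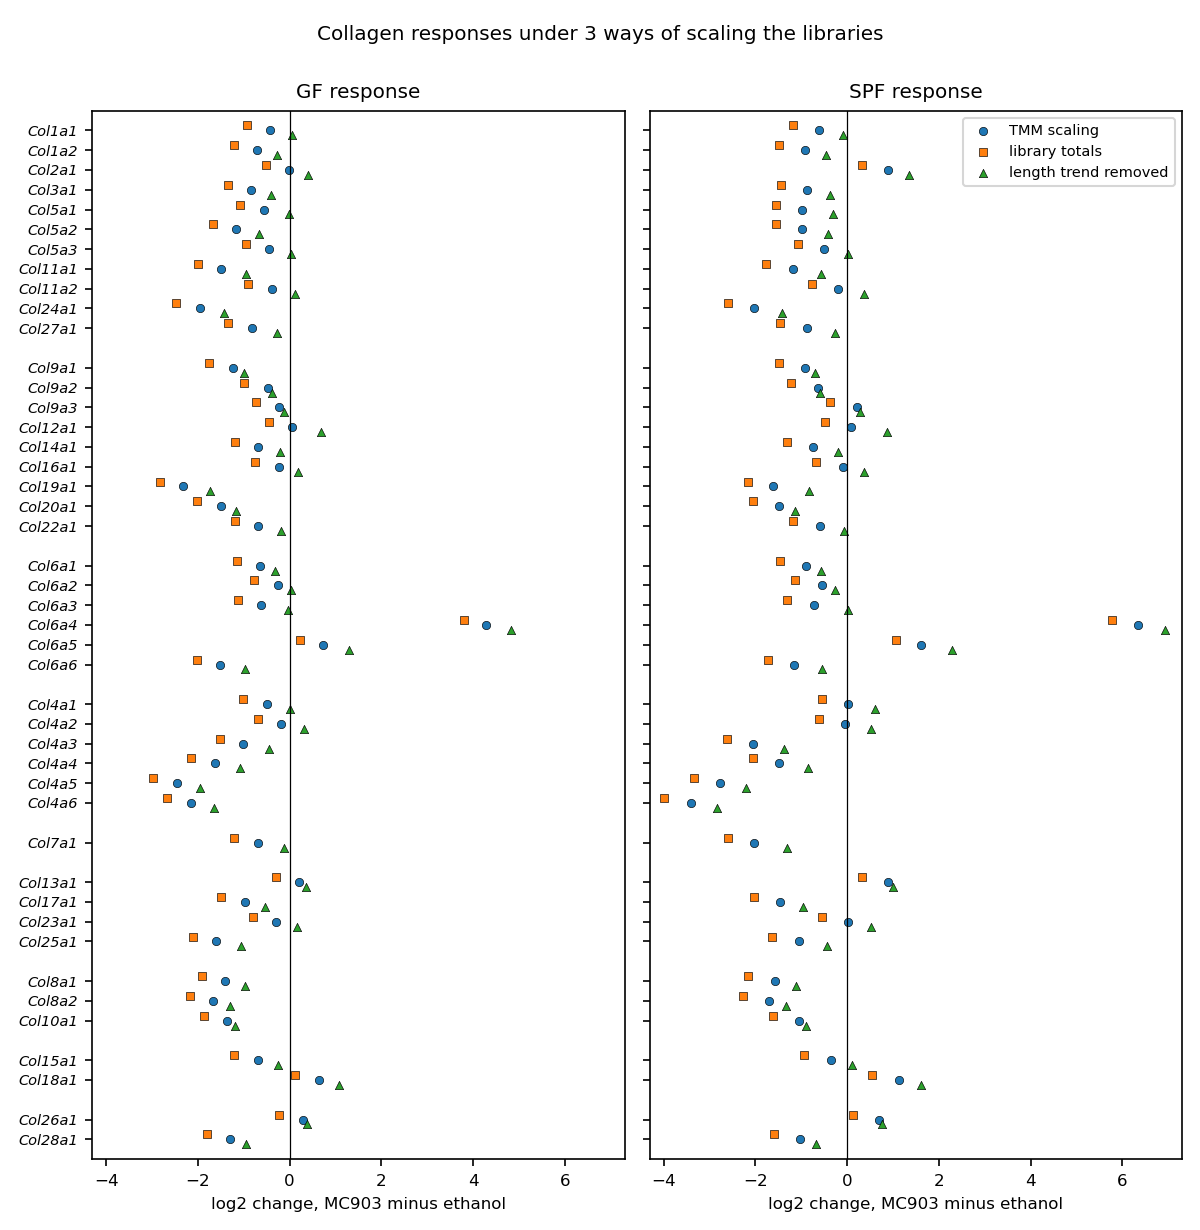
Log2 change (MC903 minus ethanol) of each collagen gene in GF skin (left) and SPF skin (right) with TMM scaling, on library totals and with the length trend removed. Library totals lie to the left of TMM scaling and the length-corrected values to its right, and the falls of Col4a5 and Col4a6 stay left of 0 under all 3.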

How the data were processed

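Gene levels in 12 mouse skin libraries came from a table the authors deposited, which gives per gene an estimated count and an FPKM value in each library, per the file headers. Per the submitters' processing notes, HISAT2 2.1.0 and StringTie 1.3.4d were among the tools, beside Trimmomatic and bcl2fastq 2.20.0, and the build was mm10. Library preparation used the TruSeq RNA v2 kit, per the labels' protocols. Neither the annotation nor the use of strand in counting was given in the sources used here. The estimated counts were whole numbers as deposited. FPKM values, as the authors deposited them, served only to compare levels between genes and to derive gene lengths.

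Counts were fitted with edgeR 4.0.16 in R 4.3.3 (quasi-likelihood, TMM scaling, 1 coefficient per group over all 12 libraries). Genes were tested where filterByExpr kept them (minimum count 10, total 15), which left out 8066 of 24532 genes, 4221 of them at 0 in every library. P-values were adjusted by Benjamini-Hochberg over the 16466 tested genes at a threshold of 0.05. Comparisons were MC903 minus ethanol in GF and in SPF skin, the difference of these, and GF minus SPF skin under each treatment. The length trend was removed with a loess fit of span 0.3. Other alternatives were DESeq2 1.42.0, library totals, no low-count filter, a replicate block, and leaving out each library. Between replicates, chi-square per degree of freedom was 17.9 to 47.2, above sampling noise, so each library counted as 1 sample.

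The members and lists were chosen with earlier results of these data known. Library values are given for the 3 chains with the highest mean FPKM of each class, the 5 largest rises and 5 largest falls that passed in each response, and up to 6 with the lowest p in each other comparison. From the other lists, up to 3 rises and 3 falls per comparison were named, with Mmp13, Mmp14, Ctsk, Loxl2, Lox, P4ha1, Serpinh1, Postn and Tgfb1 whatever their values. Other genes named were chosen after their values were seen. Figures were drawn with matplotlib 3.10.9 in Python 3.11.15.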

Additional observations from a re-analysis of the deposited data

Results flagged for a closer look

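For 8 collagen genes the response to MC903 differed between GF and SPF skin, tested by the difference of the 2 responses in edgeR's quasi-likelihood fit (GF minus SPF, 3 libraries per group, adjusted p under 0.05 over all genes). The GF response was higher for Col7a1 by 1.33, for Col4a6 by 1.25, for Col17a1 by 0.48, for Col5a1 by 0.41 and for Col6a1 by 0.25. It was lower for Col2a1 (-0.91), Col18a1 (-0.51) and Col9a3 (-0.44). Col7a1, Col4a6 and Col18a1 passed under each alternative run. Col5a1 missed the threshold with the length trend removed (0.29, adjusted p = 0.16), Col2a1 without GF MC903 1, and Col9a3 without SPF ethanol 1 or GF ethanol 5. Col17a1 missed it without SPF MC903 3, SPF ethanol 2 or 3, GF ethanol 1 or 4, or any GF MC903 library, and Col6a1 without any library but SPF ethanol 3 and with no low-count filter. With the replicate block, 3 collagens were higher and 2 lower in this difference, so not all of the 8 calls held there either.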

How the results depend on the processing

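Of 4612 log2 changes of single genes computed under alternatives, 4356 kept their side of the threshold and, where called in the report, their direction. Another 24 that were called in the report turned in sign. Turns of changes that were not called are not in that number. Counts of collagens were taken as moved where they changed by more than 1.5 times. Collagens higher in the GF response numbered 2 in the report, 1 on library totals and 4 with the length trend removed, and those lower 36, and 18 with the length trend removed. Those higher in the SPF response numbered 5, against 2 on library totals and 11 with the length trend removed. For the difference of responses DESeq2 gave 5 lower. With ethanol, the length trend removed left 9 higher and 0 lower in GF than SPF skin by edgeR, and with MC903 11 higher. Leaving out 1 library gave 3 to 5 higher and 2 to 5 lower in the difference, 2 to 4 higher and 2 to 6 lower with ethanol, and 5 to 10 higher with MC903. The cause was not tested. To look for pairing, each library's deviations from its group mean in log2 CPM were correlated between MC903 and ethanol libraries of a housing. These deviations correlated at -0.022 to 0.14 for same-numbered libraries and at -0.127 to 0.06 for the others. The deviations of each SPF MC903 library correlated most with those of the ethanol library of its number (0.007, 0.067 and 0.14). No GF MC903 library did so. With 3 libraries per group these values cannot settle whether the numbers mark pairs, and the main fit did not pair them. With the replicate block, 3 collagens were higher in the difference, as with the block and the length trend removed, which gave 4 higher and 21 lower in the GF response and 11 higher in the SPF response. Signs of called changes that turned with the length trend removed, without and with the block, were those of the GF response of Col1a1 (0.05 and 0.05), Col4a2 (0.31 and 0.32), Col5a3 (0.03 and 0.04), Col6a2 (0.04 and 0.05), Col11a2 (0.11 and 0.11), Col16a1 (0.19 and 0.19) and Col23a1 (0.16 and 0.15), and of the SPF response of Col5a3 (0.03 and 0.03) and Col6a3 (0.01 and 0.01). On library totals, the called changes that turned were the SPF response of Col9a3 (-0.37), P4ha1 (-0.32), Serpinh1 (-0.30) and Pcolce (-0.23) and the GF response of Pcolce (-0.06) and Mmp14 (-0.16). Depth limits Col6a4, Col6a5, Col19a1 and Col26a1, whose libraries hold few counts.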
